A study of Mus musculus with 6 samples.

Results

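The genes described here are 39 mouse genes of the red cell lineage and of haem synthesis, measured in knee articular cartilage. They were taken by symbol from the deposited read count table: erythroid transcription factors, red cell membrane proteins, enzymes and transporters of the haem pathway, iron uptake genes and haemoglobins. Of the 39 listed genes, 38 matched a row of the table's 55401 genes, and 37 had enough reads to be tested among 16260 tested genes. Ahsp, the chaperone of free alpha globin, was not matched and is not analysed here. Icam4, a red cell adhesion molecule, had 0 reads in all 6 libraries.

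The series holds 6 libraries from 10-week-old mice: 3 carry the genotype label WT (WT 1 to 3), and 3 the label adseverin knockout (cKO 1 to 3). Mice of both groups had received tamoxifen, the drug that switches on inducible Cre recombinase, at 1.5 mg per 10 g body weight on each of 5 days starting at 8 weeks of age. None of the sources used here gives the Cre driver, the deleted exons or the strain. The labels number the samples without saying that each is from its own mouse, and p-values therefore reflect only how far these samples spread, in part perhaps for technical reasons. Adseverin, encoded by Scin, severs and caps actin filaments.

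Red blood cells arise in bone marrow from progenitors in which GATA1, TAL1 and KLF1 switch on the genes of the membrane skeleton, of haem synthesis and of globin. Haem is built from glycine and succinyl-CoA by enzymes split between mitochondrion and cytosol, and ferrochelatase inserts the iron at the last step. ALAS2 is the erythroid form of the first enzyme, and the other enzymes are made in most cells because cytochromes also need haem. Mature articular cartilage has no blood vessels, while the bone beneath it holds marrow. Haemoglobin has also been described in chondrocytes.

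Because erythroid genes share regulators, their promoters were searched for the short motif that GATA factors bind. RefSeq promoter sequences (GRCm38.p6) were found for 31 of the 39 genes, in 37 windows of 250 bases ending just before a transcription start. The letters AGATAA, their variant AGATAG, the letters TGATAA or their variant TGATAG stood on either strand in 21 of these 37 windows (56.8%), against 26.5% of 32851 promoter windows of the same length. The GC-rich motif CCNCNCCC, which KLF factors can bind, stood in 54.1% of the windows and in 45.9% of all. The E-box CAGNTG stood in 43.2% against 44.8%, and the NFE2 motif TGAGTCA in 5.41% against 4.46%. CCNCNCCC matches can overlap each other, and both strands were read for every motif. The windows of 7 genes are shown. Of genes with all cKO libraries above WT, 6 had a window with a GATA match and at most 23 bases inside the annotated gene. Kel, whose groups overlapped, was added for its pair of matches. Klf1, Epb42 and Hemgn also had no overlap and a match, but more bases inside the gene. Sptb, Tspan33, Alad and Ppox had no overlap and no GATA match, and Cldn13, Fech, Slc25a37 and Car1 had no window. The windows shown were thus picked for their matches. Each window shown reads 5′ to 3′ on the strand of its gene, and capitals mark the GATA matches.
Gfi1b, chr2:28621983-28622232, minus strand: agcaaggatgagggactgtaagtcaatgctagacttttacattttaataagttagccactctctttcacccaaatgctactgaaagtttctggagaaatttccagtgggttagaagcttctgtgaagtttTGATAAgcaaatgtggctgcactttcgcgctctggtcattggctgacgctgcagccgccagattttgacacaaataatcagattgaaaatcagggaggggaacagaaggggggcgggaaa
Epor, chr9:21963577-21963826, minus strand: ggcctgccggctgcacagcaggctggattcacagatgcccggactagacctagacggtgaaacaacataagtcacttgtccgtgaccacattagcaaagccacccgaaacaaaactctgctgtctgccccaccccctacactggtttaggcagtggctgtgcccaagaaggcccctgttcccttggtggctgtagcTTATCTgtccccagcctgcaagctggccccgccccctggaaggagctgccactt
Rhag, chr17:40810899-40811148, plus strand: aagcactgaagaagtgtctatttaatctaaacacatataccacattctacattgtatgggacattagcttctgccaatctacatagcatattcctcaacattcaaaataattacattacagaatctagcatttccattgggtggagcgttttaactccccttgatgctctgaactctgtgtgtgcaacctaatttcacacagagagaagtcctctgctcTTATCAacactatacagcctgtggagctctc
Rhd, chr4:134864286-134864535, plus strand: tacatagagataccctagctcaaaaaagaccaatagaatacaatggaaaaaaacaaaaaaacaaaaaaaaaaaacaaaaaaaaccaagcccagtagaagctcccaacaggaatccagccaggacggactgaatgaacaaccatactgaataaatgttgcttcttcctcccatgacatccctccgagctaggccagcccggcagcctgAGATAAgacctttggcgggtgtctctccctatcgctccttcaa
Kel, chr6:41704326-41704575, minus strand: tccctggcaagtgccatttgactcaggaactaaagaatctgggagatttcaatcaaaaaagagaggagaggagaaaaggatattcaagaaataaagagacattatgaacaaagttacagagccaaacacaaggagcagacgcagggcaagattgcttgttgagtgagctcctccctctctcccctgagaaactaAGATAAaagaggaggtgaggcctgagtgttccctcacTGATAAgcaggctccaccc
Cpox, chr16:58669958-58670207, plus strand: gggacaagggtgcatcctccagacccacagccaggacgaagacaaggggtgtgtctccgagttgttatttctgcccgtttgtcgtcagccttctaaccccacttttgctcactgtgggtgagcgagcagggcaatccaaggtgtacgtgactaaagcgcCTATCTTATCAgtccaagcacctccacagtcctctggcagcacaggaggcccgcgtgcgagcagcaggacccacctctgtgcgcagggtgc
Trim10, chr17:36869324-36869573, plus strand: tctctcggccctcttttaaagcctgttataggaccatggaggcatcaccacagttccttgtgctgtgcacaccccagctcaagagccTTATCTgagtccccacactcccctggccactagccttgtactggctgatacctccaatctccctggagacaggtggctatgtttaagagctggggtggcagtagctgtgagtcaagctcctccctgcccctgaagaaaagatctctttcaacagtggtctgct
The match began 31 bases before the start in Rhag, 43 in Rhd and 54 in Epor. It began 120 bases before the start in Gfi1b and 163 in Trim10. Kel had matches at 56 and 19 bases, and Cpox had a pair that overlap, at 91 and 86 bases. A match describes letters in the reference sequence and is not evidence of binding in these samples.

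Library totals ran from 22664828 to 31014996 reads. Scin stood at 186, 185 and 219 CPM (reads per 1000000 after TMM scaling) in WT 1 to 3 and at 39.1, 29.9 and 29.4 CPM in cKO 1 to 3, so each library matched its label, and it was the 1 gene past the threshold (log2 fold change -2.59 ± 0.14, edgeR adjusted p = 6.59e-04). The labels call the cells native articular chondrocytes. All 20 chondrocyte markers listed were tested and together held 86803 to 94791 CPM in WT and 91946 to 100088 CPM in cKO, with Col2a1, the main cartilage collagen, at 14840.5 ± 429 CPM in WT (SD, n = 3). Markers of bone and marrow cells were also present: the 12 osteoblast and osteocyte genes held 33998 to 40616 CPM in WT and 39652 to 41252 CPM in cKO, and the 16 neutrophil genes 1205 to 2137 CPM in WT and 1437 to 2989 CPM in cKO.

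All 37 tested erythroid and haem genes had a fitted log2 fold change above 0 (cKO minus WT), where 50.6% of all tested genes did. Their median was 0.67, with a range from 0.11 to 2.25, against a median of 0.00 over all genes tested. In 17 of the 37, every cKO library lay above every WT library, an arrangement found in 6.41% of all genes. In 0 of the 37 did every cKO library lie below every WT library, as in 5.89% of all genes. None passed the edgeR quasi-likelihood test at a Benjamini-Hochberg adjusted p of 0.05 (0 of 37, with 0.00615% of all genes called), and 18 had an unadjusted p under 0.05 on the higher side and 0 on the lower side, where 3.54% and 2.96% of all genes did. The smallest adjusted p among them was 0.268, for Trim10. DESeq2 called 0.54% of all genes, 0.261% higher in cKO, and 9 of the 37, all higher, namely Klf1, Gfi1b, Rhag, Rhd, Epb42, Cldn13, Slc25a37, Hemgn and Trim10. These genes were listed with earlier results of this same contrast in view, so the counts describe the list and support nothing beyond it. In tissue RNA, more cells of a type and more RNA per cell cannot be told apart.

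**Figure D1:**
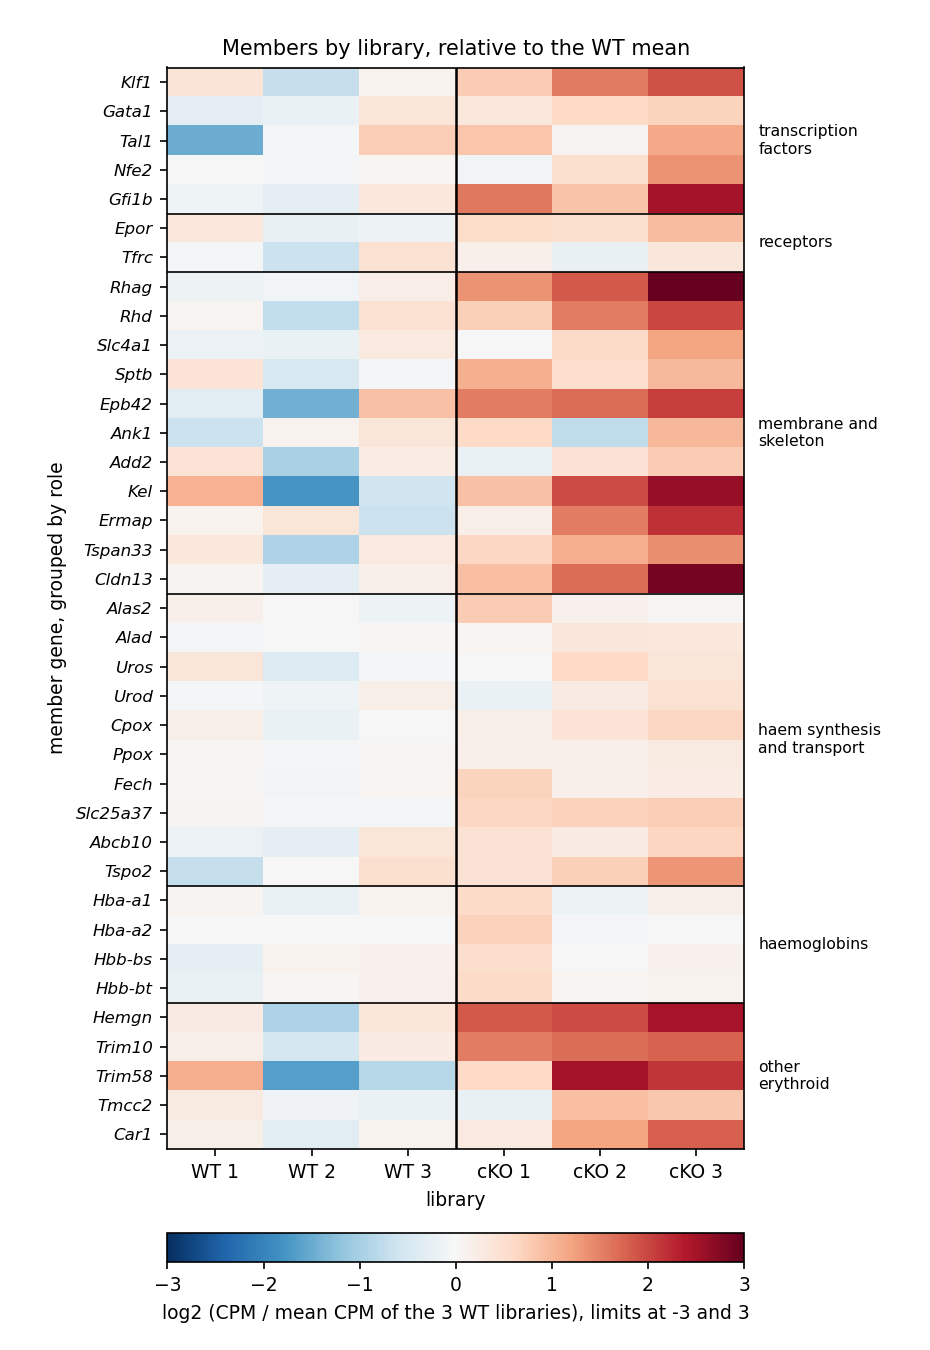
Level of each of the 37 tested genes (rows, grouped by role) in each library (columns), as log2 of CPM over the mean of the 3 WT libraries, with the colour scale limited to -3 and 3. The membrane genes and transcription factors are reddest in cKO 3, except Sptb, while the haemoglobins and Alas2 are reddest in cKO 1.

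**Figure D2:**
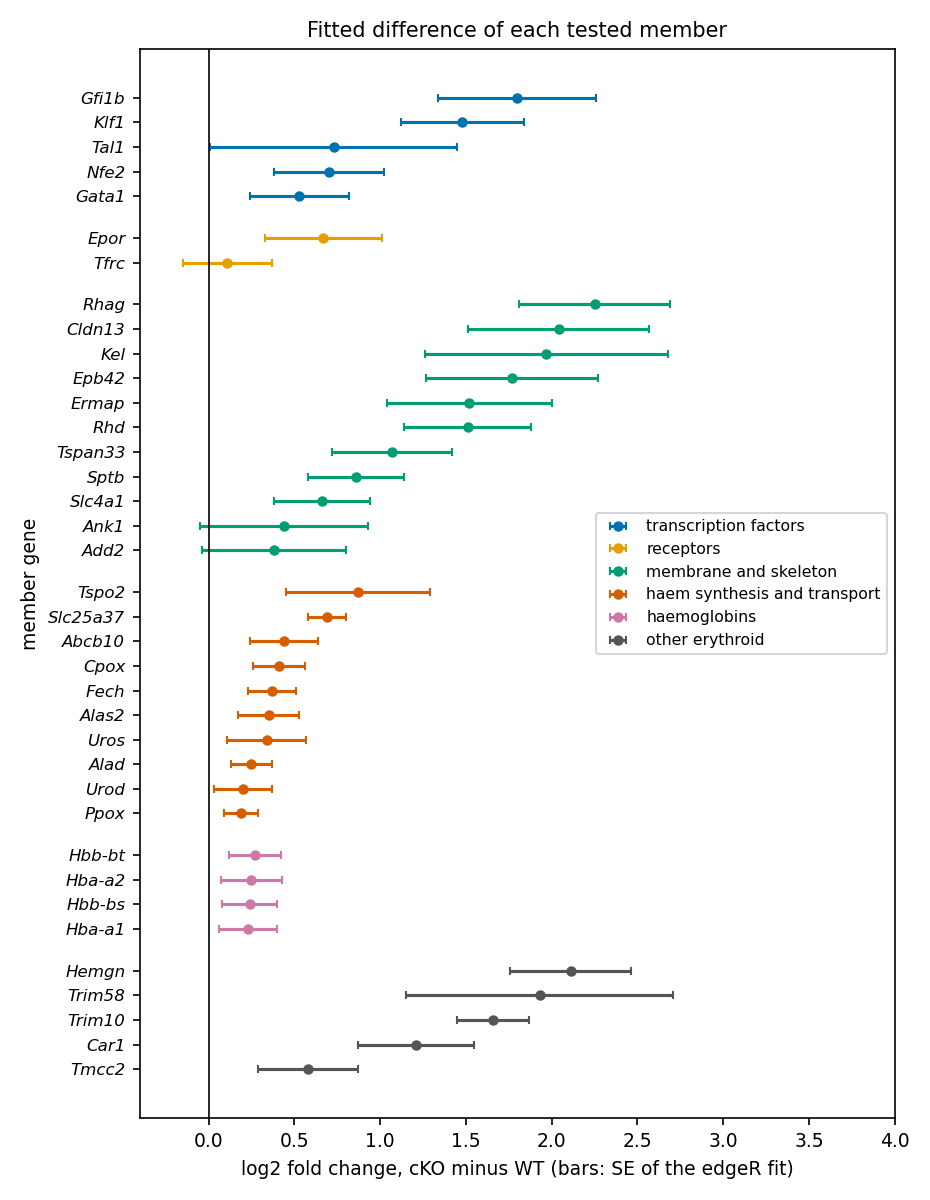
Fitted log2 fold change (cKO minus WT) of each tested gene, with bars for the standard error of the edgeR fit, coloured by role. Values run from 0.11 for Tfrc to 2.25 for Rhag, and the 4 haemoglobins lie together between 0.23 and 0.27.

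Among the 5 transcription factors, Klf1 and Gfi1b stood apart from the WT libraries in every cKO library, and Gata1, Nfe2 and Tal1 did not. Klf1 (ENSMUSG00000054191, chromosome 8, 84901928 to 84905291, GRCm38), the activator of adult beta globin and of many membrane genes, stood at 6.76, 3.25 and 5.62 CPM in WT 1 to 3 and 8.77, 15.3 and 19.5 CPM in cKO 1 to 3. All cKO libraries lay above the highest WT library, cKO 1 by the least. The log2 fold change was 1.48 ± 0.36 (edgeR adjusted p = 0.605; DESeq2 adjusted p = 0.0191). Gfi1b (ENSMUSG00000026815, chromosome 2, 28609450 to 28621982), a repressor needed for red cell and megakaryocyte development, stood at 1.60, 1.45 and 2.17 CPM in WT 1 to 3 and 5.22, 3.16 and 9.88 CPM in cKO 1 to 3, with a log2 fold change of 1.80 ± 0.46 (edgeR adjusted p = 0.605; DESeq2 adjusted p = 0.0486, and not past the threshold when DESeq2 was given only the genes that edgeR tested). Here cKO 2 was the lowest cKO library and cKO 3 the highest, with no overlap between the groups.

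Gata1, the X-linked master regulator of the lineage, stood at 3.38, 3.55 and 5.24 CPM in WT 1 to 3 and 5.05, 6.16 and 6.45 CPM in cKO 1 to 3, with a log2 fold change of 0.53 ± 0.29. WT 3 lay above cKO 1, so the groups overlapped. Nfe2, whose product binds globin control regions and also drives platelet formation, stood at 12.8, 12.7 and 13.4 CPM in WT 1 to 3 and 12.1, 18.1 and 32.7 CPM in cKO 1 to 3. Here cKO 1 lay below all WT libraries and cKO 3 far above the rest, and the log2 fold change of 0.70 ± 0.32 became 0.23 without cKO 3. Tal1, a partner of GATA1, had 5 to 26 reads per library, or 0.178 to 1.09 CPM, too few for values to be read library by library. The 5 factors summed to 24.7, 21.4 and 27.2 CPM in WT 1 to 3 and 32.1, 43.3 and 69.6 CPM in cKO 1 to 3.

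The erythropoietin receptor gene Epor, through which the hormone keeps progenitors alive, stood at 3.10, 2.11 and 2.204 CPM in WT 1 to 3 and 3.63, 3.46 and 4.69 CPM in cKO 1 to 3. The groups did not overlap, although the lowest cKO library lay close to WT 1, and the log2 fold change was 0.67 ± 0.34 (edgeR adjusted p = 0.811). Tfrc, the transferrin receptor that brings iron into dividing cells of many types, stood at 52.6, 34.5 and 73.7 CPM in WT 1 to 3 and 59.3, 46.2 and 68.2 CPM in cKO 1 to 3. It was the 1 gene of the 37 with its highest value in a WT library, WT 3. Its log2 fold change of 0.11 ± 0.26 turned to -0.13 without WT 2 and to -0.02 without cKO 3, and became 0.41 without WT 3 and 0.25 without cKO 2.

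The genes of the red cell membrane and its skeleton included Rhag, which had the highest fold change of the list. All 11 tested genes had a fold change above 0 with a median of 1.51, and 6 of them (Rhag, Rhd, Sptb, Epb42, Tspan33 and Cldn13) had no overlap between the groups. Rhag (ENSMUSG00000023926, chromosome 17, 40811126 to 40840754), the Rh-associated glycoprotein that conducts ammonia and carries the Rh complex, stood at 2.42, 2.54 and 3.08 CPM in WT 1 to 3 and 6.86, 9.58 and 22.0 CPM in cKO 1 to 3. The 3 WT libraries lay within 1 CPM of each other and every cKO library was more than double the highest of them, with cKO 3 far above the rest. Its log2 fold change of 2.25 ± 0.44 was the highest of the 37 (edgeR adjusted p = 0.533; DESeq2 adjusted p = 1.94e-04). Rhd, the Rh protein carried by that complex, stood at 15.5, 9.04 and 20.6 CPM in WT 1 to 3 and 24.7, 43.8 and 60.2 CPM in cKO 1 to 3, with a log2 fold change of 1.51 ± 0.37 (DESeq2 adjusted p = 0.00447). The order of the cKO libraries was the same as for Rhag.

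Slc4a1 encodes band 3, the chloride and bicarbonate exchanger that anchors the skeleton to the membrane. It stood at 19.7, 19.3 and 27.2 CPM in WT 1 to 3 and 22.1, 32.9 and 49.97 CPM in cKO 1 to 3. WT 3 lay above cKO 1, and the log2 fold change of 0.66 ± 0.28 became 0.32 without cKO 3. Epb42, protein 4.2, which links band 3 to ankyrin, stood at 3.49, 1.62 and 8.09 CPM in WT 1 to 3 and 12.8, 14.1 and 18.5 CPM in cKO 1 to 3. The groups were separate, WT 2 was the lowest library, and the log2 fold change was 1.77 ± 0.50 (edgeR adjusted p = 0.658; DESeq2 adjusted p = 0.0304). Sptb, the erythroid beta spectrin, stood at 8.82, 4.78 and 6.38 CPM in WT 1 to 3 and 13.9, 9.45 and 13.1 CPM in cKO 1 to 3, a log2 fold change of 0.86 ± 0.28. Its highest library was cKO 1, unlike the other membrane genes.

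Ank1, erythroid ankyrin, and Add2, beta adducin, which caps the short actin filaments of the skeleton, overlapped between the groups. Ank1 stood at 1.85, 3.12 and 3.69 CPM in WT 1 to 3 and 4.34, 1.71 and 5.73 CPM in cKO 1 to 3, and cKO 2 was its lowest library. Its log2 fold change was 0.44 ± 0.49, which became 0.20 without WT 1, 0.80 without cKO 2 and 0.07 without cKO 3. Add2 stood at 5.44, 2.11 and 4.75 CPM in WT 1 to 3 and 3.59, 5.50 and 6.99 CPM in cKO 1 to 3. WT 1 lay above cKO 1, and the log2 fold change of 0.38 ± 0.42 became 0.63 without WT 1, 0.07 without WT 2, 0.60 without cKO 1 and 0.15 without cKO 3. Both genes are also made outside the red cell lineage.

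Kel, the zinc endopeptidase that carries the Kell blood group, stood at 3.06, 0.439 and 0.988 CPM in WT 1 to 3 and 2.74, 5.79 and 9.17 CPM in cKO 1 to 3. WT 1 lay above cKO 1 and well above the other WT libraries, and the log2 fold change of 1.97 ± 0.71 became 3.02 without WT 1. Ermap, an erythroid membrane protein of the butyrophilin family, stood at 5.37, 6.49 and 3.19 CPM in WT 1 to 3 and 5.67, 14.5 and 22.8 CPM in cKO 1 to 3. Here cKO 1 lay among the WT libraries, and the log2 fold change of 1.52 ± 0.48 became 1.01 without cKO 3.

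Tspan33, a tetraspanin needed for normal red cell formation, stood at 9.68, 4.08 and 9.58 CPM in WT 1 to 3 and 12.0, 16.6 and 20.6 CPM in cKO 1 to 3, a log2 fold change of 1.07 ± 0.35 with no overlap. Cldn13, a claudin of rodents found on erythroid cells, stood at 1.42, 1.10 and 1.48 CPM in WT 1 to 3 and 2.48, 4.25 and 9.84 CPM in cKO 1 to 3. The WT libraries lay close together, cKO 3 stood far above the other cKO libraries, and the log2 fold change of 2.04 ± 0.53 (edgeR adjusted p = 0.605; DESeq2 adjusted p = 0.0429) became 1.33 without cKO 3. Icam4, with 0 reads, lies wholly inside the antisense gene Gm47079, which had 8 reads in cKO 1 and 0 in the other libraries. The library kit does not mark strand and none of the sources used here gives the counting rule for overlapping genes, so the count of 0 for Icam4 cannot be read as a level.

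**Figure D3:**
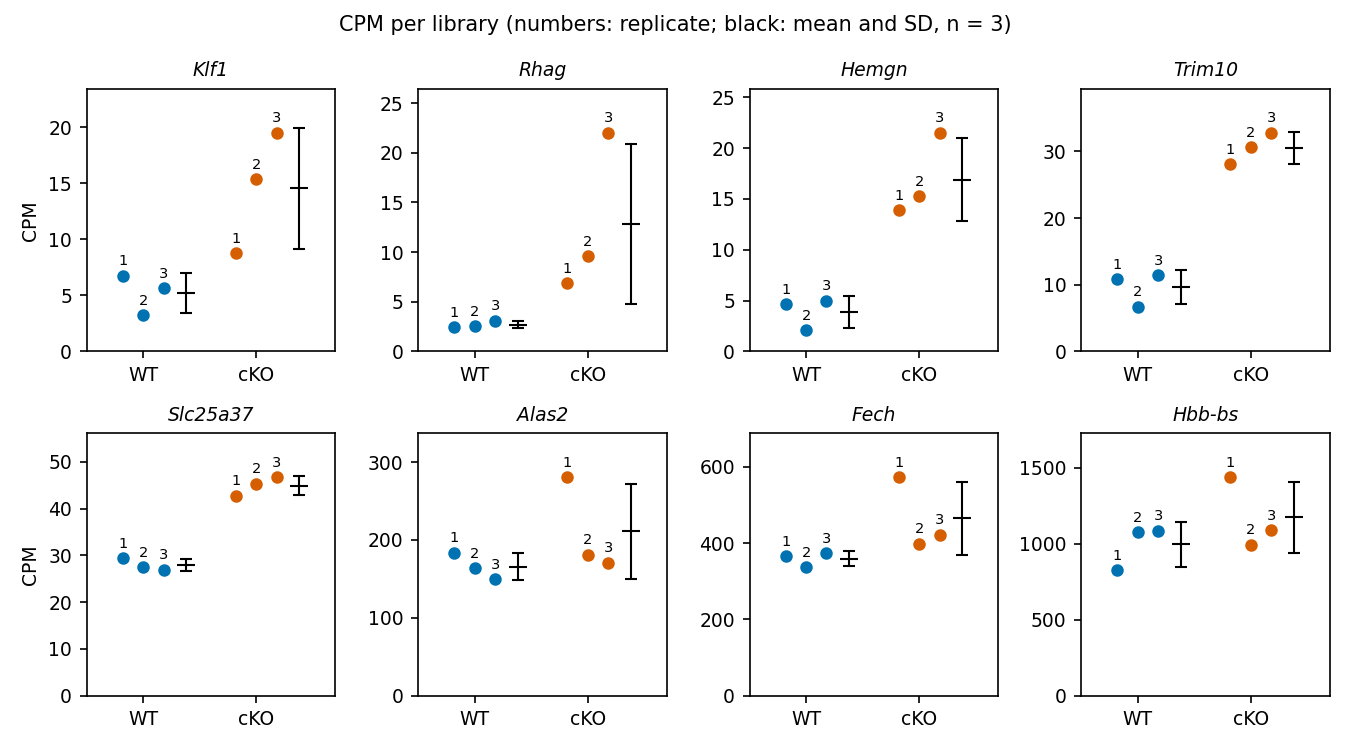
CPM of 8 genes in each library (points, numbered by replicate), with the mean and SD of each group (black, n = 3) and an axis from 0 in each panel. Klf1, Rhag, Hemgn, Trim10 and Slc25a37 have every cKO point above every WT point, with cKO 3 highest, whereas cKO 1 is the highest library for Alas2, Fech and Hbb-bs.

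Of the genes grouped as other erythroid genes, Hemgn and Trim10 differed most evenly over the cKO libraries. Hemgn (ENSMUSG00000028332, chromosome 4, 46393989 to 46413506) encodes hemogen, a nuclear protein of blood progenitors, and stood at 4.66, 2.06 and 4.98 CPM in WT 1 to 3 and 13.9, 15.2 and 21.5 CPM in cKO 1 to 3. The lowest cKO library was more than double the highest WT library, and the log2 fold change was 2.11 ± 0.35 (edgeR adjusted p = 0.361; DESeq2 adjusted p = 3.35e-06). Trim10 (ENSMUSG00000073400, chromosome 17, 36869574 to 36877833), an E3 ubiquitin ligase family gene involved in terminal erythroid differentiation, stood at 10.9, 6.71 and 11.4 CPM in WT 1 to 3 and 28.1, 30.6 and 32.8 CPM in cKO 1 to 3. The cKO libraries lay within a narrow range, and the log2 fold change of 1.66 ± 0.21 gave the smallest p of the 37 (edgeR adjusted p = 0.268; DESeq2 adjusted p = 4.21e-09). With no filter on low counts Trim10 passed edgeR at an adjusted p of 0.0136.

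Car1, the carbonic anhydrase I of red cells, stood at 11.9, 8.42 and 11.2 CPM in WT 1 to 3 and 12.9, 24.1 and 36.2 CPM in cKO 1 to 3, with no overlap but only a small gap between WT 1 and cKO 1. Its log2 fold change was 1.21 ± 0.34. Tmcc2 stood at 24.9, 19.0 and 17.9 CPM in WT 1 to 3 and 17.6, 38.7 and 36.3 CPM in cKO 1 to 3, and cKO 1 was its lowest library of all 6. Its log2 fold change was 0.58 ± 0.29. Trim58, a ubiquitin ligase that acts as late erythroblasts lose their nucleus, stood at 1.74, 0.263 and 0.456 CPM in WT 1 to 3 and 1.24, 4.61 and 3.64 CPM in cKO 1 to 3. It had 6 reads in WT 2 and 12 in WT 3, WT 1 lay above cKO 1, and the log2 fold change of 1.93 ± 0.78 became 3.11 without WT 1.

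The genes of the haem pathway had smaller fold changes than most membrane genes. All 10 had a fold change above 0, the median was 0.36, and 5 of them (Alad, Cpox, Ppox, Fech and Slc25a37) had no overlap between the groups. On a scale per kilobase of exon (RPKM), Alas2 was the most abundant of the 10, at 68.9 ± 7.15 in WT and 87.8 ± 25.3 in cKO (SD, n = 3). Fech followed at 26.0 ± 1.39 RPKM in WT and 33.6 ± 6.86 in cKO. Alad stood at 22.0 ± 0.931 RPKM in WT, Urod at 17.9 ± 1.97 and Ppox at 10.8 ± 0.420. Cpox, Uros, Abcb10 and Slc25a37 lay between 4.64 and 5.86 RPKM in WT, and neighbours in that order differed by less than their spread. Tspo2 was the least abundant, at 0.778 ± 0.305 RPKM in WT and 1.43 ± 0.476 in cKO.

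Slc25a37 (ENSMUSG00000034248, chromosome 14, 69241848 to 69285112), mitoferrin 1, which carries iron into the mitochondrion, stood at 29.5, 27.5 and 26.9 CPM in WT 1 to 3 and 42.8, 45.3 and 46.8 CPM in cKO 1 to 3. Both groups were tight and the lowest cKO library stood well above the highest WT library, and the log2 fold change of 0.69 ± 0.11 had the smallest error of the genes above the list's median (edgeR adjusted p = 0.323; DESeq2 adjusted p = 2.09e-04). Abcb10, the mitochondrial transporter that works with mitoferrin 1, stood at 18.9, 17.6 and 27.1 CPM in WT 1 to 3 and 28.5, 25.0 and 33.1 CPM in cKO 1 to 3. WT 3 lay above cKO 2, and the log2 fold change was 0.44 ± 0.20. Tspo2, a translocator protein of red cell precursors, stood at 1.53, 2.501 and 3.50 CPM in WT 1 to 3 and 3.36, 4.12 and 6.32 CPM in cKO 1 to 3, a log2 fold change of 0.87 ± 0.42 with WT 3 above cKO 1.

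Alas2 (ENSMUSG00000025270, chromosome X, 150547375 to 150570638), the erythroid enzyme that starts haem synthesis, stood at 184, 164 and 149 CPM in WT 1 to 3 and 281, 181 and 171 CPM in cKO 1 to 3. Only cKO 1 lay clear of WT; cKO 2 and cKO 3 lay below WT 1, and the log2 fold change of 0.35 ± 0.18 became 0.09 without cKO 1. Of its exonic bases, 15.5% are shared with antisense genes, Apex2 among them, and reads there cannot be assigned to a strand. Alas1, the form of the first enzyme made in other tissues, is no member of the list and stood at 24.0, 15.8 and 19.9 CPM in WT 1 to 3 and 12.8, 18.7 and 16.3 CPM in cKO 1 to 3, a log2 fold change of -0.32 ± 0.21. It was chosen after its values were seen.

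The log2 fold changes of the cytosolic enzymes that follow ran from 0.20 to 0.34. Alad, which joins 2 molecules of aminolevulinate, stood at 39.2, 41.7 and 42.5 CPM in WT 1 to 3 and 42.6, 52.3 and 51.4 CPM in cKO 1 to 3, a log2 fold change of 0.25 ± 0.12. The groups did not overlap, but cKO 1 lay within 1 CPM of WT 3. Uros, which closes the porphyrin ring, stood at 24.2, 14.3 and 18.3 CPM in WT 1 to 3 and 18.9, 28.8 and 24.2 CPM in cKO 1 to 3, with overlap. The log2 fold change of Uros, 0.34 ± 0.23, became 0.55 without WT 1, 0.17 without WT 2 and 0.19 without cKO 2. Urod, which trims the side chains of the ring, stood at 44.3, 42.6 and 52.2 CPM in WT 1 to 3 and 40.5, 54.7 and 64.1 CPM in cKO 1 to 3, and cKO 1 was its lowest library. Its log2 fold change of 0.20 ± 0.17 became 0.13 without WT 2, 0.36 without cKO 1 and 0.04 without cKO 3.

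The last steps lie in the mitochondrion. Cpox, the coproporphyrinogen oxidase, stood at 43.8, 34.0 and 39.3 CPM in WT 1 to 3 and 43.8, 52.0 and 59.6 CPM in cKO 1 to 3, a log2 fold change of 0.41 ± 0.15. WT 1 and cKO 1 were equal to within 0.1 CPM, so the groups were only just separate. Ppox, the protoporphyrinogen oxidase, stood at 49.7, 46.4 and 49.7 CPM in WT 1 to 3 and 54.3, 54.3 and 58.3 CPM in cKO 1 to 3, a log2 fold change of 0.19 ± 0.10; 17.5% of its exonic bases are shared with the antisense gene B4galt3. Fech, ferrochelatase, stood at 366, 338 and 374 CPM in WT 1 to 3 and 574, 399 and 422 CPM in cKO 1 to 3. Every cKO library lay above WT, cKO 1 far above the other two, and the log2 fold change of 0.37 ± 0.14 became 0.19 without cKO 1.

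**Figure D4:**
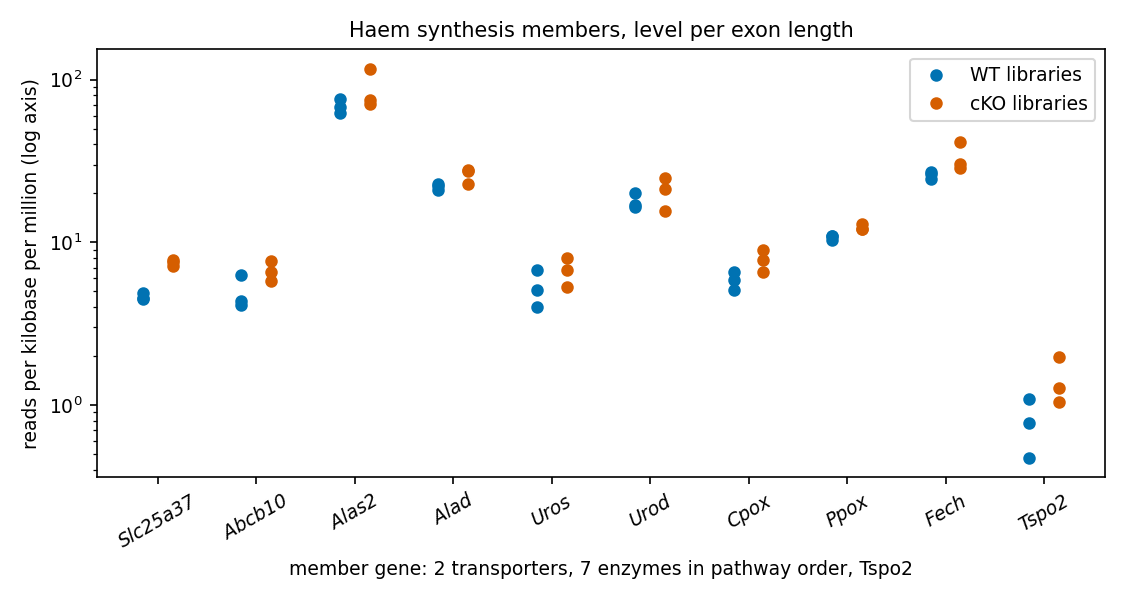
RPKM (log axis) of the 10 haem pathway genes in the WT and cKO libraries, with 1 point per library: 2 transporters, then 7 enzymes in the order of the pathway, then Tspo2. Alas2 is the most abundant and Tspo2 the least; the WT and cKO points are separate for Slc25a37, Alad, Cpox, Ppox and Fech.

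Per kilobase of exon, the 4 adult globin genes were the most abundant of the list in both groups, and their log2 fold changes lay between 0.23 and 0.27, with overlap of the groups in all 4. Together they took 0.258%, 0.267% and 0.289% of all reads in WT 1 to 3 and 0.405%, 0.258% and 0.296% in cKO 1 to 3, each with a 95% Wilson interval at most 0.0052 percentage points wide, which covers counting error only. Only cKO 1 lay above the WT libraries by more than the spread among them. Hba-a1 stood at 772, 633 and 776 CPM in WT 1 to 3 and 1077, 655 and 817 CPM in cKO 1 to 3 and Hba-a2 at 607, 602 and 619 CPM in WT 1 to 3 and 982, 587 and 605 CPM in cKO 1 to 3. For both alpha globin genes cKO 2 and cKO 3 lay at or near the WT values, and without cKO 1 the log2 fold changes of 0.23 ± 0.17 and 0.25 ± 0.18 became 0.02 and -0.03. Without cKO 2 both became 0.38, and without WT 2 that of Hba-a1 became 0.13. The beta globin genes had the same shape. Hbb-bs stood at 826, 1077 and 1086 CPM in WT 1 to 3 and 1439, 992 and 1089 CPM in cKO 1 to 3, and Hbb-bt at 331, 389 and 418 CPM in WT 1 to 3 and 565, 398 and 411 CPM in cKO 1 to 3. Without cKO 1 their log2 fold changes of 0.24 ± 0.16 and 0.27 ± 0.15 became 0.06 and 0.09, and without WT 1 they became 0.11 and 0.18.

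The coding sequences of Hba-a1 and Hba-a2 differ at 1 of 429 bases, and those of Hbb-bs and Hbb-bt at 1 of 444, so how reads were split within each pair is uncertain. Hba-a1 held 1.05 to 1.35 reads per Hba-a2 read and Hbb-bs 2.49 to 2.77 per Hbb-bt read, with the WT and cKO libraries mixed in both orders. Alpha globin stood at 0.843 to 1.19 CPM per CPM of beta globin, again with the groups mixed. Per length, Hbb-bs was the most abundant at 1297 ± 192 RPKM in WT, Hba-a2 and Hba-a1 did not differ beyond their spread at 914 ± 13.2 and 895 ± 99.9, and Hbb-bt was lower at 539 ± 63.0. The embryonic globins Hbb-y, Hbb-bh1, Hbb-bh2 and Hba-x had 0 reads in all 6 libraries.

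The cKO libraries were not alike in these genes. Of the 37, 25 were highest in cKO 3, 7 in cKO 1, 4 in cKO 2 and 1 in WT 3; over all tested genes cKO 3 was highest for 17.6% and cKO 1 for 16.2%. The 7 genes highest in cKO 1 were Sptb, Alas2, Fech and the 4 globins. For 23 of the 37, cKO 1 was the lowest cKO library, among them Klf1, Rhag, Rhd, Hemgn and Trim10. The membrane genes summed to 76.8, 54.7 and 89.0 CPM in WT 1 to 3 and 111, 158 and 239 CPM in cKO 1 to 3, and the globins to 2535, 2701 and 2898 CPM in WT 1 to 3 and 4063, 2631 and 2921 CPM in cKO 1 to 3. Globin reads per read of the 5 transcription factors came to 103, 126 and 106 in WT 1 to 3, 127 in cKO 1, 60.8 in cKO 2 and 41.9 in cKO 3. Against the membrane genes the same ratio was 33.0, 49.4 and 32.6 in WT, 36.5 in cKO 1, 16.6 in cKO 2 and 12.2 in cKO 3. In both ratios cKO 1 lay within the WT range or less than 1 above it, and cKO 2 and cKO 3 lay below it. These ratios were chosen after the values were seen and were not tested.

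**Figure D5:**
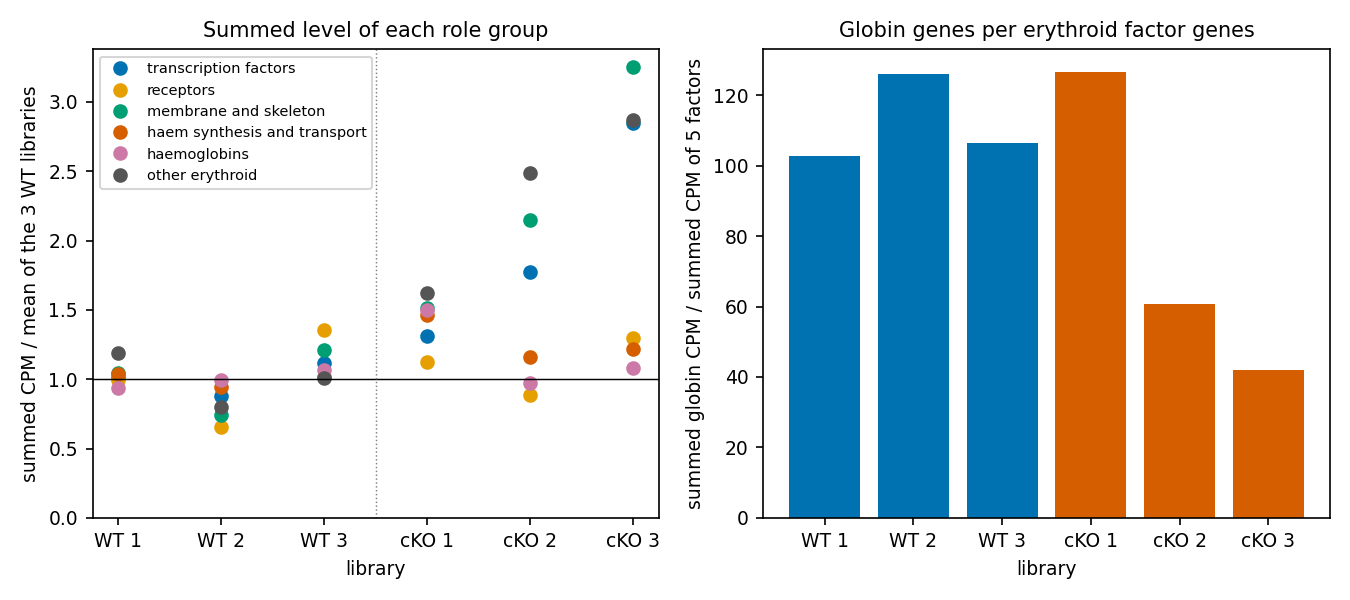
Left, summed CPM of each role group in each library divided by the mean of the 3 WT libraries; right, summed globin CPM per summed CPM of the 5 transcription factors, as bars from 0. The membrane, transcription factor and other erythroid sums are highest in cKO 3 while the globin sum is highest in cKO 1, and the ratio on the right is 127 in cKO 1 and 41.9 in cKO 3.

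Other genes of the same pathways that are not on the list lay closer to 0. Of 90 such genes, 84 were tested, 58 had a log2 fold change above 0 and 26 below, and the median was 0.09. None passed edgeR at an adjusted p of 0.05. An unadjusted edgeR p under 0.05 was found for 6 higher and 2 lower, against 3.54% and 2.96% of all tested genes. The cKO libraries lay wholly above WT in 7 and wholly below in 3, against 6.41% and 5.89% of all tested genes. The erythroid genes among the 84 had a median of 0.17 over 51 genes. The haem and iron genes had 0.05 over 34, with 1 gene in both. The listed genes and these other genes were both chosen with earlier results of these data known. The contrast between them therefore describes the lists only. Car2, carbonic anhydrase II, which osteoclasts also make, stood at 90.5, 64.9 and 91.4 CPM in WT 1 to 3 and 113, 136 and 197 CPM in cKO 1 to 3, a log2 fold change of 0.85 ± 0.21. The groups were separate, and DESeq2 called Car2 (adjusted p = 0.0115). Ireb2, an iron sensor that binds messenger RNA, stood at 21.8, 18.03 and 23.4 CPM in WT 1 to 3 and 31.8, 25.0 and 35.5 CPM in cKO 1 to 3, a log2 fold change of 0.55 ± 0.17.

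Markers of other blood cells did not all follow the same order over libraries. The 16 neutrophil genes, all tested, summed to 2137, 1205 and 1690.3 CPM in WT 1 to 3 and 1437, 1840.3 and 2989 CPM in cKO 1 to 3. They were highest in cKO 3, as most erythroid genes were, but WT 1 was second; 12 lay above 0 with a median of 0.38. S100a8 and Ngp, both neutrophil granule or cytosol proteins, had log2 fold changes of 0.35 ± 0.28 and 0.40 ± 0.29, and Retnlg and Ly6g had 0.77 ± 0.30 and 0.82 ± 0.39. The megakaryocyte and platelet genes, which share GATA1, NFE2 and GFI1B with the red cell lineage, summed to 64.2, 98.2 and 289 CPM in WT 1 to 3 and 80.9, 176 and 148 CPM in cKO 1 to 3. They were highest in WT 3, with a median of -0.24 over 14 of 15 genes and 5 above 0. Ppbp and Pf4, the platelet chemokines, had log2 fold changes of -0.20 ± 0.87 and -0.22 ± 0.40, Selp -1.32 ± 0.64 and Vwf -0.96 ± 0.59.

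The 12 B lineage genes held 88.0 to 129 CPM in WT and 126 to 159 CPM in cKO, with a median of -0.14 over 10 tested. Ebf1, a B cell factor that stromal cells also make, held most of this sum, at 70.2, 84.5 and 50.01 CPM in WT 1 to 3 and 77.4, 125 and 96.6 CPM in cKO 1 to 3, a log2 fold change of 0.55 ± 0.22. The 8 mast cell and basophil genes held 21.3 to 33.8 CPM in WT and 22.4 to 101 CPM in cKO, with a median of -0.15 over 6. Prss34, a mast cell and basophil protease, stood at 7.93, 18.1 and 20.1 CPM in WT 1 to 3 and 30.8, 13.5 and 75.1 CPM in cKO 1 to 3 and held most of the sum in cKO 3. The 14 macrophage genes held 754 to 999 CPM in WT and 564 to 792 CPM in cKO, and 11 of 12 tested lay below 0 (median -0.28). The 8 osteoclast genes held 1096 to 2296 CPM in WT and 1029 to 1851 CPM in cKO, all 8 below 0 (median -0.19), the 11 endothelial genes 72.5 to 113 CPM in WT and 61.7 to 114 CPM in cKO (median -0.21), and the 9 adipocyte genes 36.4 to 188 CPM in WT and 27.0 to 47.5 CPM in cKO (median -1.36 over 8 tested, with Lep at 0 reads). The osteoblast and osteocyte genes had a median of 0.24 and the chondrocyte genes 0.18. Of 23 cell division genes 20 lay above 0 with a median of 0.32, and their sum was 585, 539 and 516 CPM in WT 1 to 3 and 434, 553 and 661 CPM in cKO 1 to 3. Mki67, a marker of cycling cells, stood at 16.2, 8.91 and 13.5 CPM in WT 1 to 3 and 20.8, 29.0 and 38.3 CPM in cKO 1 to 3, the cKO order of Klf1, with a log2 fold change of 1.19 ± 0.28. By contrast, Mcm6, a subunit of the replication helicase, stood at 125, 209 and 102 CPM in WT 1 to 3 and 41.7, 42.2 and 57.5 CPM in cKO 1 to 3, a log2 fold change of -1.62 ± 0.26. Over the 140 tested genes of the cell type and cell division lists, 0 passed the edgeR threshold. An unadjusted edgeR p under 0.05 was found for 13 on the higher side and 6 on the lower, against 3.54% and 2.96% of all tested genes. DESeq2 called 3 of the 140, Acan, Mki67 and Mcm6, against 0.54% of all genes. What part any of these cell types had in the erythroid values was not tested.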

How the data were processed

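RNA was measured in 3 WT and 3 cKO libraries of knee articular cartilage. The values are the deposited counts, whole numbers of reads for each Ensembl gene with no normalization by the authors. Per the labels' protocols, full-length cDNA was made with a kit for very low input, of a type that does not keep strand. Alignment with HISAT2 2.2.1 and counting with featureCounts 2.0.1 on GRCm38 are named in the submitters' processing notes, beside DESeq2 1.30.1 and FastQC 0.11.9. None of the sources gives the annotation release, strand setting or multi-mapping rule. The authors' table of normalized values was not used.

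The counts were filtered with filterByExpr, scaled with TMM and fitted with edgeR 4.0.16 in R 4.3.3 (glmQLFit and glmQLFTest, group only, 4 residual degrees of freedom), with Benjamini-Hochberg adjustment over 16260 genes and a threshold of 0.05. CPM uses the TMM-scaled library sizes, RPKM divides CPM by the union of GENCODE M21 exons, and the SE is the log2 fold change divided by the square root of F. No permutation test was run, since with 3 libraries a side its exact p is never under 0.1. Libraries of a group differed by a chi-square per degree of freedom of 31.4 to 36.5, so none was a duplicate. Symbols were found for 55141 gene IDs; Ahsp, Rhce and Hjv were not matched.

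The 39 genes, the other lists and the tests were chosen with earlier results of these data known. Values per library are given for each of the 36 listed genes with a mean of at least 1 CPM. For the other erythroid and haem lists the rule names the 2 genes with the smallest p, and for the cell type lists also the 2 most abundant; outside the neutrophil and megakaryocyte lists the latter are given as sums and counts. Some genes that this rule takes are not reported here. Blvrb is in both other lists. Alternatives were DESeq2 1.42.0, limma-voom (limma 3.58.1), RLE factors, library sizes alone, no filter, at least 1 CPM in 3 libraries, the replicate number as a block and leaving out each library; DESeq2 restricted to the genes tested by edgeR was added after the data were seen.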

Additional observations from a re-analysis of the deposited data

How the results depend on the processing

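The median log2 fold change of the tested erythroid and haem genes, 0.67, came to 0.61 to 0.66 under the other tools, scalings and filters, and to 0.48 to 0.75 with single libraries left out, lowest without cKO 3. The median over all genes stayed between -0.005 and 0.004 under every alternative run. Genes past the threshold numbered 1 with edgeR, 91 with DESeq2, 82 with DESeq2 restricted to the genes tested by edgeR and 3 with no filter on low counts, and 1 to 2 with single libraries left out, 2 without WT 3. Listed genes past it numbered 0 with edgeR, 9 with DESeq2, 8 with that restriction (without Gfi1b) and 1, Trim10, with no filter, and 0 to 0 with single libraries left out. The other erythroid and iron genes past it numbered 0 with edgeR and 2 with either run of DESeq2. Of 504 fold changes of the 36 named genes under 14 alternatives, 483 kept direction and side of the threshold, 18 passed it where edgeR did not, and 3 changed sign. Those 3 were Tfrc, whose log2 fold change ranged from -0.13 (without WT 2) to 0.41 with single libraries left out and was -0.02 without cKO 3, and Hba-a2, which ranged from -0.03 (without cKO 1) to 0.38. Listed genes with no overlap between the groups numbered 17 to 28 with single libraries left out, 28 without cKO 1 (12.1% of all genes) and 17 without cKO 3 (11.6%). With the replicate number as a block, 1 gene and 0 listed genes passed and the median was 0.61. Deviations of same-numbered libraries correlated at -0.0193, 0.0712 and 0.0235, and those of differently numbered libraries at -0.068 to 0.0503. The labels do not say whether the numbers pair the samples, and correlations this small cannot settle it. The cause of these differences between tools was not tested. Genes with few reads, such as Tal1 and Trim58, have wide errors at this depth.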
